A study of Mus musculus with 21 samples.

Results

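Lgr5 ablation was compared with no treatment in CD24hi cells of the mouse small intestine, on 2 Lgr5-ablated and 2 untreated arrays, 4 of the 21 samples of the study. The samples were taken by their labels, as the CD24hi sorted fraction of the ablated mice and of the untreated mice. In the study, TdTomato-positive cells that the labels call Mist1+ were split by flow cytometry into a CD24hi and a CD24lo fraction, under 5 conditions with 2 arrays apiece, and 1 array held whole intestine. The other conditions were irradiation with 10 Gy, doxorubicin (a drug that damages DNA) and NICD, which usually stands for the active fragment of Notch. All sorted groups share the TdTomato label and the sort. The labels call the ablated samples DT without spelling it out, and no group received DT without ablation, so an effect of the agent and an effect of losing Lgr5-expressing cells cannot be told apart. Strain, age, the alleles behind the label and the ablation, dose and the time after ablation are not given in the sources used here. Whether replicates 1 and 2 were different mice is not stated, so the p-values measure only the spread between these samples.

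Lgr5 is a receptor for R-spondins that marks the dividing stem cells at the crypt base, which are interleaved with Paneth cells, the secretory cells that supply antimicrobial peptides and growth factors. Mist1, the protein of Bhlha15, is a transcription factor that builds the secretory machinery, and CD24 is a surface protein abundant on Paneth cells and other crypt secretory cells. When stem cells are lost, secretory precursors and other crypt cells are known to be able to replace them. Interferon gamma is made by lymphocytes and induces in epithelium chemokines, guanylate-binding proteins and the machinery of antigen presentation.

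Values below are MAS5 signals per array, or differences of log2(signal + 16), Lgr5-ablated minus untreated, ± SE with 2 arrays per group, from limma over all 11854 genes tested, and p-values are adjusted over those genes. A gene is said to have risen or fallen where its adjusted p is under 0.05. The arrays of the 2 CD24hi groups did not overlap for 2159 genes (18.2%) higher and 2202 (18.6%) lower in ablated cells. Lack of overlap was therefore common among all genes. Array medians were between 101 and 158 on the 20 sorted arrays. Replicates correlated at 0.947 in the ablated and 0.970 in the untreated CD24hi group across genes. The 10 groups ranged from 0.942 to 0.985, so the ablated pair lay near the low end. Each SE rests on a spread pooled over all 10 groups. On the first principal component, the ablated CD24hi arrays lay at 39.3 and 19.9 and the untreated ones at 36.4 and 44.2, so of these 4 the second ablated array lay nearest to the CD24lo arrays, all of which were below 0. On the second component the first ablated array stood apart, at 19.1 against -20.1 for the second, with the untreated arrays at -17.2 and -22.9. The pseudocount makes folds of dim genes smaller than they are.

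Lgr5 itself had signals of 1140 and 788 in the ablated CD24hi arrays, against 2841 and 1962 in the untreated ones. Both ablated arrays lay below both untreated arrays, but the difference of -1.30 ± 0.56 did not pass the test (adjusted p = 0.455), and a second Lgr5 probe set gave -1.31 with an adjusted p of 0.158. Since the arrays measured bulk RNA, fewer Lgr5-expressing cells and less Lgr5 RNA per cell cannot be told apart. The transcripts that the sort implies, Bhlha15 and Cd24a, stayed far above the array medians in ablated cells. For both, the ablated arrays lay below the untreated ones, as for 18.6% of all genes, and neither difference passed. Bhlha15 measured 1845 and 1828 in ablated and 2157 and 2792 in untreated cells (-0.42 ± 0.26, adjusted p = 0.701), and Cd24a measured 17801 and 14522 against 18465 and 21547 (-0.31 ± 0.18, adjusted p = 0.64). Lyz1, the lysozyme of Paneth cells, measured 23275 and 17620 in ablated against 19657 and 27664 in untreated cells, with overlapping groups, and Atoh1, the transcription factor that starts secretory fate, was at 8182 and 6981 against 5559 and 6387.

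In all, 101 genes passed the threshold, 0.852% of the genes tested, with 68 higher (0.574%) and 33 lower (0.278%) in ablated cells. Their differences ranged in size from 0.60 to 5.26 on the log2 scale, with medians of 1.78 for the higher and -1.41 for the lower genes, and 35 exceeded 2. The largest rises were those of Cxcl9, Ido1, Il1rn, Cxcl10 and Gbp2, and the largest falls those of Inha, Pdia2, Gkn3, Sdr16c6 and Slc14a1. With 1 array left out, 55 genes passed without ablated replicate 1 and 186 without ablated replicate 2. Without untreated replicate 1 there were 55, and without untreated replicate 2 there were 36. Of the 101 genes, 24 passed in each of these 4 fits, 21 higher and 3 lower, and 14 passed in none of them. A fit to the 4 arrays alone, which estimates the spread from fewer arrays, gave 33 genes, 32 of them among the 101.

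**Figure D1:**
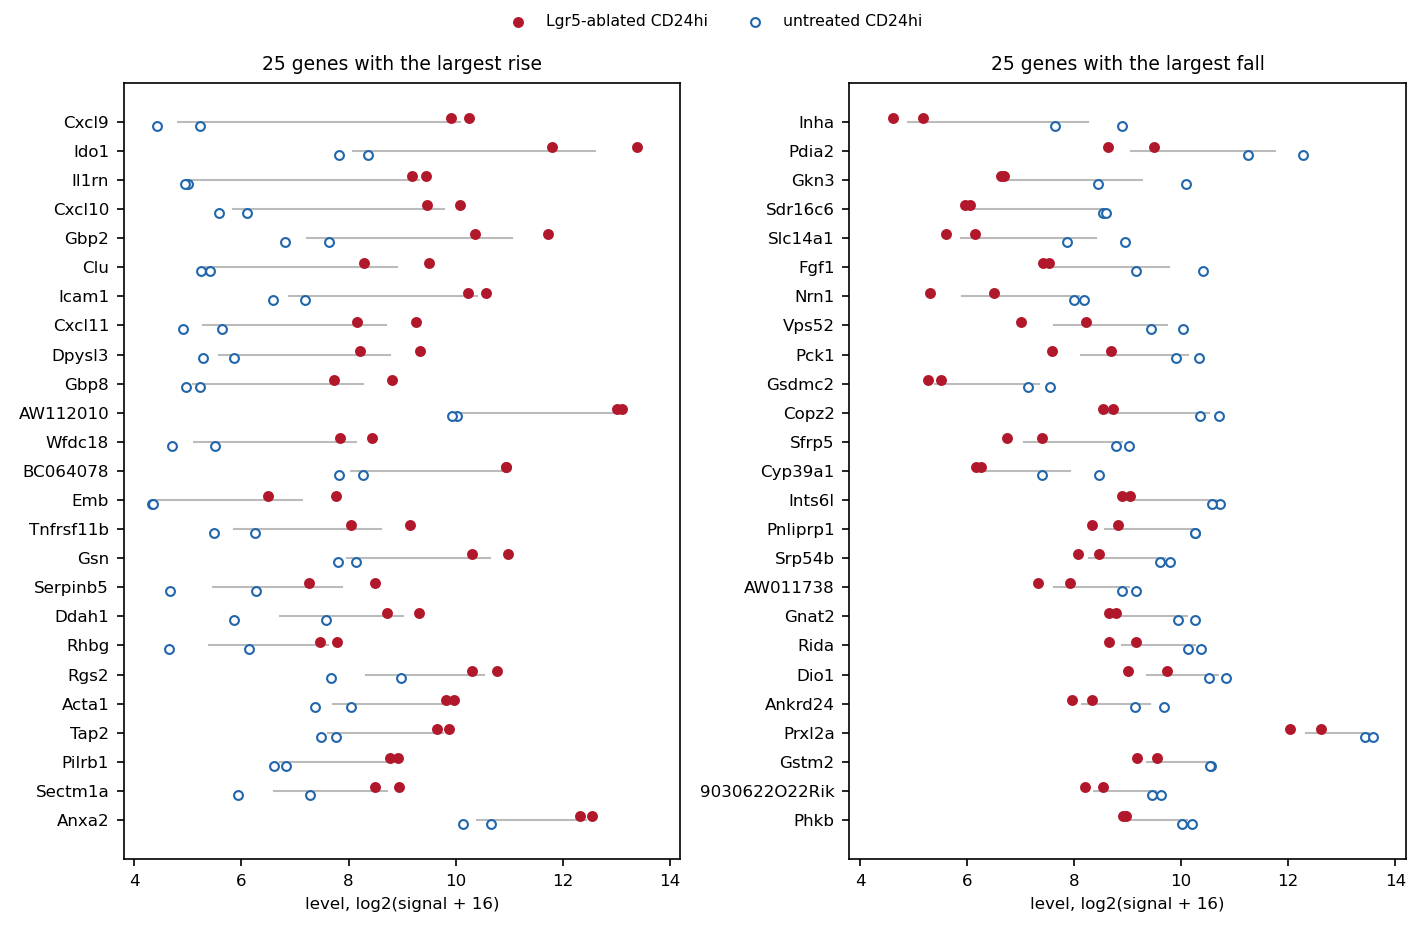
Levels, as log2(signal + 16), of the 25 genes with the largest rise (left) and the 25 with the largest fall (right) on each of the 4 CD24hi arrays. Filled red points are Lgr5-ablated arrays, open blue points untreated arrays and the grey line joins the group means, and the arrays of the 2 groups do not overlap for any gene shown, Cxcl9 having the widest gap with a difference of 5.26.

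**Figure D2:**
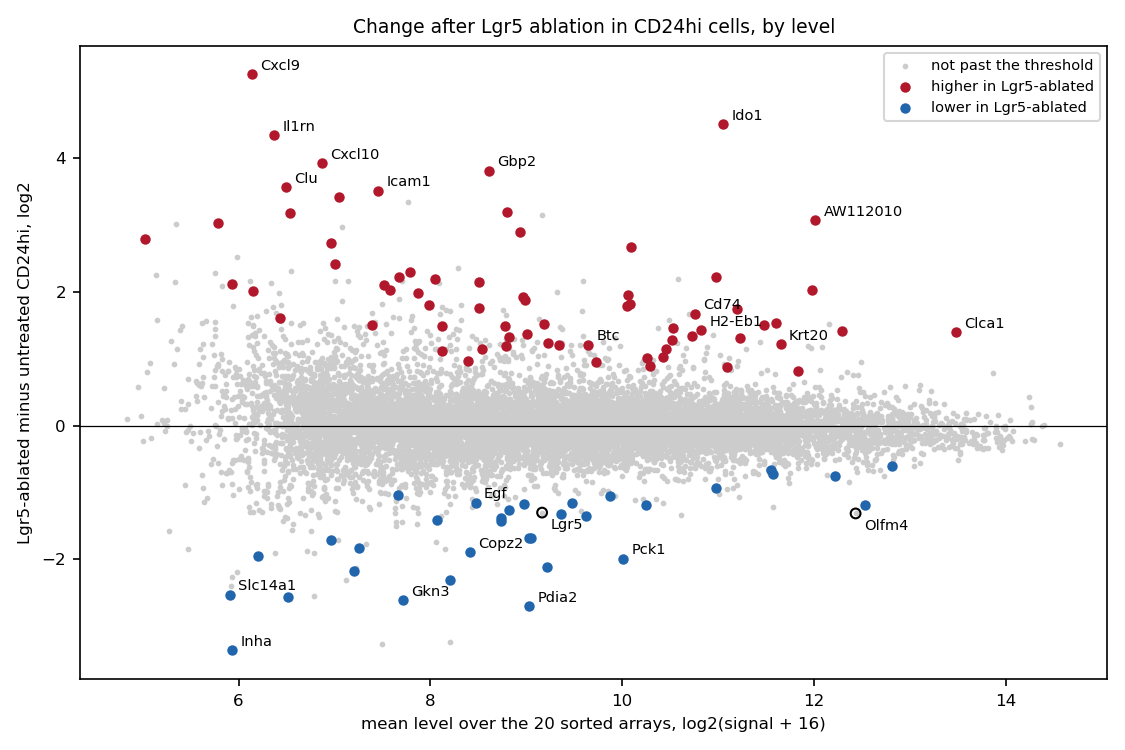
Each point is 1 of the 11854 genes, with its mean level over the sorted arrays, log2(signal + 16), on the x axis and the difference, Lgr5-ablated minus untreated CD24hi, log2, on the y axis. Red points are the 68 genes that rose and blue points the 33 that fell, and Lgr5 and Olfm4 are ringed among the grey genes that did not pass the threshold.

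The chemokine genes Cxcl9, Cxcl10 and Cxcl11, whose products attract T cells through the receptor CXCR3, were among the genes with the largest rise, with Gbp2 and the long transcript AW112010. The 250 bases before the start of some of these genes are shown with the matches to 4 motifs, of which the first 3 are linked to interferon or NF-kappa B signalling and the last is a general promoter element: the GAS motif, TTCNNNGAA, the core of the interferon-stimulated response element, GAAA and GAAA with 2 bases between, the kappa B motif, GGGA and TTCC with 2 bases between, and the CCAAT box, CCAAT. Both strands were searched and matches are in capitals. Sequences are from RefSeq on GRCm38.p6, 5′ to 3′ on the strand of the gene, and end at the base before the start. They lie at chr5:92328080-92328329 for Cxcl9 and chr5:92348890-92349139 for Cxcl10, both on the minus strand, at chr3:142620413-142620662 on the plus strand for Gbp2, and at chr19:11050567-11050816 on the minus strand for AW112010.
Cxcl9: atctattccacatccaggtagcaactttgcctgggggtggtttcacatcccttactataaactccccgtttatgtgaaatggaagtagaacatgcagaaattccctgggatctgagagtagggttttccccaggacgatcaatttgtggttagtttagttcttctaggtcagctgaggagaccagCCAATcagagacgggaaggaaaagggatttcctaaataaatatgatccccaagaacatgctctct
Cxcl10: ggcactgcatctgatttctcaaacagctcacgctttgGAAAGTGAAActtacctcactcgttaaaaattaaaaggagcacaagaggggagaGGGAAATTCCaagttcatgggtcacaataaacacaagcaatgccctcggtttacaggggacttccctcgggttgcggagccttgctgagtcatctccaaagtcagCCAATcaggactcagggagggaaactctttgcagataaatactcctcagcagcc
Gbp2: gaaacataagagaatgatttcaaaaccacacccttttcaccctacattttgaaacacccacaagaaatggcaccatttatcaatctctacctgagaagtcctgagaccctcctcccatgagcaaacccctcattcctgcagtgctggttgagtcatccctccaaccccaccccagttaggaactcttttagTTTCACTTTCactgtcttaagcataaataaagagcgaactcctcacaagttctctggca
AW112010: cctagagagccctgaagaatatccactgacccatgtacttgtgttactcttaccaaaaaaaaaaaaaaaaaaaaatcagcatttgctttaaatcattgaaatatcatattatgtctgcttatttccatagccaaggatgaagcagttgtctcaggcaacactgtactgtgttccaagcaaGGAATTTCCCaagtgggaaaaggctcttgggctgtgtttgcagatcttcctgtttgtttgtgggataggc
In Cxcl10 the response element core begins 213 bases, the kappa B match 159 bases and the CCAAT box 54 bases before the start. The Gbp2 window holds the response element core at 59 bases on the other strand, that of AW112010 a kappa B match at 70 bases on the other strand, and that of Cxcl9 only a CCAAT box, at 65 bases. Of the 68 genes that rose, 49 have a promoter in the table used, and of these 4 hold the response element core (8.16%, against 3.11% of the promoters of 9624 genes tested) and 3 a kappa B match (6.12%, against 1.4%). The GAS motif was in 3 (6.12%, against 7.12%) and the CCAAT box in 19 (38.78%, against 40.25%). A match describes these letters only.

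Cxcl9 had signals of 946 and 1207 in ablated CD24hi cells, against 5.42 and 21.4 in untreated ones, a rise of 5.26 ± 0.47 (adjusted p = 1.76e-05). Untreated signals lay far below the array median and ablated signals far above it. With a pseudocount of 1 Cxcl9 did not pass (adjusted p = 0.487). Another, dimmer Cxcl9 probe set gave a smaller difference of 1.61 ± 0.53, which did not pass in limma over all kept probe sets (adjusted p = 0.272). Cxcl10 measured 1066 and 694 in ablated against 32.0 and 52.5 in untreated cells (3.93 ± 0.61, adjusted p = 0.00287). Cxcl11 measured 596 and 269 against 14.1 and 34.0 (3.43 ± 0.41, adjusted p = 0.000305). All 3 ligands of the shared receptor therefore had no overlap between groups, at low signals in the untreated cells. Of all genes, 18.2% had no overlap in this direction.

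Ido1, which encodes the enzyme that starts the breakdown of tryptophan to kynurenine, had signals of 10783 and 3570 in ablated cells and of 312 and 209 in untreated ones (4.52 ± 0.43, adjusted p = 2.51e-05). The groups did not overlap, though the 2 ablated arrays differed from each other more than the untreated ones did. Gbp2 and Gbp8 belong to the guanylate-binding proteins, which attack the compartments of intracellular microbes. Gbp2 measured 3396 and 1297 in ablated against 96.6 and 184 in untreated cells (3.82 ± 0.43, adjusted p = 0.000168). Gbp8 measured 432 and 196 against 15.1 and 21.4 (3.18 ± 0.43, adjusted p = 0.000859). AW112010 is an immune-induced transcript, first annotated as non-coding and later found to be translated. Its signals were 8777 and 8308 in ablated and 1034 and 966 in untreated cells (3.07 ± 0.17, adjusted p = 1.84e-08), the smallest adjusted p among all genes tested, with close replicates in both groups. These 6 genes and AW112010 each passed in all 4 fits that left out 1 array.

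Of 24 interferon gamma response genes tested, these 6 (without AW112010, which is not on the list) rose, none fell, 23 had a positive difference and the median was 0.75, against a median of 0.0003 and 5933 positive of all 11854 genes. The unadjusted p was under 0.05 for 13 of the 24, and for 1134 of all genes (9.57%). The 13 became 6 without ablated replicate 1, where the median was 0.50, and 8 without untreated replicate 2, and the median was 1.13 without ablated replicate 2. Iigp1, an interferon-inducible GTPase, measured 3808 and 887 in ablated against 320 and 377 in untreated cells (2.35 ± 0.66, adjusted p = 0.128), without overlap but short of the threshold. Irf1, a transcription factor induced by interferon gamma, was at 3306 and 2787 in ablated against 2683 and 2785 in untreated cells (0.15 ± 0.17, adjusted p = 0.892). Of 32 genes of the type I interferon antiviral list none passed in limma, 9 had an unadjusted p under 0.05 (1 without ablated replicate 1, 6 without either untreated replicate) and the median was 0.29 (0.54 without untreated replicate 1, 0.44 without ablated replicate 2). Of these 32 genes, 25 had a positive difference. The groups did not overlap, with ablated cells higher, for 15 of the 32, against 18.2% of all genes. The member of the type I list with the largest difference was Ifit1, which binds viral RNA, at 1.29 ± 0.45 (adjusted p = 0.28). The ligands, receptors and signalling genes of the interferon pathway gave 0 of 15 past the threshold and 1 at an unadjusted p under 0.05. The receptor chain genes Ifngr1 and Ifngr2 differed by 0.34 ± 0.19 and 0.43 ± 0.23. Ifng itself exceeded the array median on 0 of the 20 sorted arrays and was not tested.

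T cell and macrophage markers were mostly dim in the same arrays. Of 26 measured T cell and intraepithelial lymphocyte markers, 17 lay below the array median on all 4 arrays. Their summed signal was 4859 and 4376 in ablated and 4199 and 3830 in untreated cells. Cd3e, a chain of the T cell receptor complex, had signals of 28.6 and 92.7 against 46.2 and 10.97, and Ptprc, the pan-leukocyte protein CD45, had 319 and 263 against 127 and 80.8 (1.38 ± 0.70, adjusted p = 0.565). Of the 17 T cell markers tested, 16 had a positive difference, with a median of 0.42, and none passed in limma (1 at an unadjusted p under 0.05). Macrophage and dendritic cell markers summed to 1450 and 1189 in ablated and 1519 and 1435 in untreated cells, with 18 of 20 below the median on all 4 arrays. Their part in the chemokine and interferon results was not tested.

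Genes of both branches of antigen presentation rose. Class II molecules show peptides from endosomes to CD4 T cells and class I molecules show peptides of the cytosol to CD8 T cells. The promoter windows of H2-Eb1, the class II beta chain, and Psmb8, an immunoproteasome subunit, are shown because class II promoters carry a CCAAT-like box close to the start and Psmb8 a GAS motif. They lie at chr17:34305617-34305866 and chr17:34197945-34198194, both on the plus strand.
H2-Eb1: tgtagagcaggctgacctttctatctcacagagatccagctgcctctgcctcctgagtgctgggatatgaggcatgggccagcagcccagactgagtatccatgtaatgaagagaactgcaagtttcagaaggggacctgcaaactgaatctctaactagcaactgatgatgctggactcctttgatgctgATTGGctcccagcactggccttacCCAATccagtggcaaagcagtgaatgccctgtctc
Psmb8: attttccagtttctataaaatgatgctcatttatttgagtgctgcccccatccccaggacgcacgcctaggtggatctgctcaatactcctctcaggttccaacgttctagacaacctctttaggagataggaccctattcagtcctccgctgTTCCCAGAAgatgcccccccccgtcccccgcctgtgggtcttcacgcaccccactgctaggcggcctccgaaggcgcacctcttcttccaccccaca
The H2-Eb1 window holds CCAAT boxes in capitals 59 and 35 bases before the start, the first on the other strand, and the Psmb8 window a GAS match at 97 bases.

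Of 7 MHC class II genes tested, 4 rose, 0 fell and 7 had a positive difference, with a median of 1.19. H2-Eb1 measured 5116 and 6271 in ablated against 2364 and 1842 in untreated cells (1.43 ± 0.23, adjusted p = 0.00334). Cd74, the chaperone that fills the peptide groove, measured 7342 and 5950 against 1925 and 2193 (1.68 ± 0.30, adjusted p = 0.00896). For both genes the 2 groups lay well apart and each group's arrays were close. The Cd74 call was nevertheless lost without ablated replicate 1 or without either untreated replicate. That of H2-Eb1 was lost without untreated replicate 2. H2-Aa, the class II alpha chain, measured 3992 and 4147 in ablated and 1579 and 1355 in untreated cells (1.47 ± 0.33, adjusted p = 0.0499), and H2-DMa, which loads peptides, 1102 and 1157 against 465 and 506 (1.19 ± 0.26, adjusted p = 0.0396). H2-Ab1 differed by 1.06 ± 0.24 (adjusted p = 0.0524) and Ciita, the master activator of class II genes, by 0.93 ± 0.33 (adjusted p = 0.307), with no overlap between groups for either gene. The summed class II signal was 22523 and 21679 in ablated and 8378 and 8298 in untreated cells. B and plasma cell markers, another source of class II transcripts, summed to 39033 and 11705 in ablated and 12934 and 18002 in untreated cells, and their part in the class II result was not tested. H2-Aa passed in only 6 of 18 alternatives, and was lost among others with a pseudocount of 1, 75th percentile centring, a changed filter and no variance trend, and H2-DMa was lost without the filter. The class II count rested on single arrays, with 2 genes past the threshold without ablated replicate 2, 1 without ablated replicate 1, 1 without untreated replicate 1, and 0 without untreated replicate 2, where 5 had an unadjusted p under 0.05.

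On the class I side 3 of 22 genes rose and 0 fell, with 12 positive and a median of 0.19. Tap2, a chain of the peptide transporter of the endoplasmic reticulum, measured 931 and 785 in ablated against 200 and 162 in untreated cells (2.15 ± 0.27, adjusted p = 0.000497). Nlrc5, which activates class I genes, measured 741 and 529 against 201 and 139 (1.81 ± 0.28, adjusted p = 0.00303). Psmb8 measured 2886 and 3689 in ablated against 1760 and 1774 in untreated cells (0.88 ± 0.17, adjusted p = 0.0202). The 3 genes share a role in supplying peptides to class I or in switching its genes on, while B2m, the common light chain, differed by 0.53 and Tap1, the partner of Tap2, by 0.46, both short of the threshold. Tap2 passed with any 1 array left out. Nlrc5 did not pass without ablated replicate 1 (adjusted p = 0.0624) or untreated replicate 2 (0.0726), nor Psmb8 without ablated replicate 2 (0.121), untreated replicate 1 (0.134) or untreated replicate 2 (0.138).

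Adhesion and inflammation genes rose with them. Icam1, the surface protein that leukocyte integrins bind, measured 1509 and 1184 in ablated against 79.8 and 129 in untreated cells (3.52 ± 0.39, adjusted p = 0.00015). Its promoter window, at chr9:21015690-21015939 on the plus strand, holds a GAS match 42 bases before the start, in capitals.
Icam1: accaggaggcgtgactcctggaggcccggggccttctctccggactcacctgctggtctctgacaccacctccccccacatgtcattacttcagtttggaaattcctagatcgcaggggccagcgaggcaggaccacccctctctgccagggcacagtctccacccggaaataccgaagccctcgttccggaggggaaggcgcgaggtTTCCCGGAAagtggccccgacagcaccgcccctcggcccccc
Cxcl16, a membrane-bound chemokine, measured 3168 and 2634 in ablated and 764 and 697 in untreated cells (1.96 ± 0.26, adjusted p = 0.00081). Tnfaip3, a brake on NF-kappa B, measured 1386 and 968 against 487 and 478 (1.24 ± 0.21, adjusted p = 0.0065). Neither gene's groups overlapped. These were the 3 of 20 inflammatory chemokine and NF-kappa B genes that rose, none fell, and the list's median was 0.49. Without ablated replicate 2, 4 list members rose and 1 fell. The Tnfaip3 call was lost without ablated replicate 1 (adjusted p = 0.134), untreated replicate 1 (0.0563) or untreated replicate 2 (0.0732), while Icam1 and Cxcl16 passed with any 1 array left out.

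Among 19 genes linked to epithelial repair and the YAP pathway 3 rose, 0 fell and the median was 0.35. Il1rn, a secreted antagonist of interleukin 1, measured 680 and 569 in ablated against 16.1 and 14.7 in untreated cells (4.35 ± 0.75, adjusted p = 0.0065). Clu, a secreted chaperone, measured 709 and 299 against 21.9 and 26.5 (3.57 ± 0.71, adjusted p = 0.0192). Anxa3, a membrane-binding annexin, measured 416 and 424 in ablated and 121 and 85.7 in untreated cells (1.88 ± 0.28, adjusted p = 0.00179). In each case the ablated arrays lay above both untreated arrays by more than the spread within groups. Anxa3 passed with any 1 array left out, whereas Il1rn and Clu passed only without ablated replicate 2. Clu did not pass with a pseudocount of 1 or the mean of the probe sets either. The adjusted p of Il1rn and Clu was 0.0683 and 0.238 without ablated replicate 1, 0.0551 and 0.134 without untreated replicate 1, and 0.0729 and 0.12 without untreated replicate 2. One list member passed without ablated replicate 1, 1 without untreated replicate 2, 2 without untreated replicate 1 and 4 without ablated replicate 2.

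Other genes with large rises are on none of these lists, except Gch1. Gsn, the actin-severing protein gelsolin, measured 1998 and 1254 in ablated against 207 and 268 in untreated cells (2.67 ± 0.24, adjusted p = 1.76e-05). Anxa2, which links membranes to actin, measured 5985 and 5119 against 1118 and 1602 (2.03 ± 0.25, adjusted p = 0.000365). Dpysl3, a protein of the cytoskeleton, measured 632 and 280 in ablated against 22.9 and 42.3 in untreated cells (3.20 ± 0.40, adjusted p = 0.000432). Anxa2 was lost with the mean of the probe sets (0.0642). These 3 genes passed with any 1 array left out, as did BC064078, a transcript with no name in the files beyond this one, at 1946 and 1963 in ablated against 294 and 210 in untreated cells (2.90 ± 0.27, adjusted p = 2.06e-05). Tnfrsf11b, the decoy receptor osteoprotegerin, measured 553 and 250 against 59.9 and 28.9 (2.73 ± 0.44, adjusted p = 0.00381), and was lost without ablated replicate 1 (0.0886) or untreated replicate 2 (0.0799). Wfdc18, a small secreted protein, measured 214 and 331 against 10.2 and 29.5 (3.03 ± 0.49, adjusted p = 0.00385), and was lost without untreated replicate 1 (0.0665). Gch1, the first enzyme of the pathway to the cofactor of nitric oxide synthase, measured 737 and 408 in ablated and 180 and 245 in untreated cells (1.32 ± 0.28, adjusted p = 0.0341). With 1 array left out it passed only without ablated replicate 2 (adjusted p between 0.0845 and 0.435 in the other fits), and it was lost without the filter or with the mean of the probe sets.

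Of 25 intestinal stem cell genes tested, 3 fell, 0 rose and 20 had a negative difference, with a median of -0.25. The 3 were Gkn3, a gastrokine that also marks Lgr5-positive cells, Slc14a1, a urea transporter, and Nrn1, the neurite growth protein neuritin. Gkn3 measured 87.6 and 83.2 in ablated against 1080 and 332 in untreated cells (-2.61 ± 0.49, adjusted p = 0.0133). Slc14a1 measured 33.0 and 55.3 against 480 and 219 (-2.53 ± 0.52, adjusted p = 0.0257), and Nrn1 74.6 and 23.6 against 274 and 238 (-2.18 ± 0.39, adjusted p = 0.00836). On the ablated arrays all 3 were below the range of array medians. Olfm4, an abundant secreted protein of stem cells, measured 7053 and 9381 in ablated against 20382 and 20130 in untreated cells (-1.31 ± 0.31, adjusted p = 0.0536), with wide separation but short of the threshold. Ascl2, a transcription factor of stem cells, differed by 0.35 ± 0.49 and Smoc2 by -0.38 ± 0.22, short of it too. The summed stem cell signal was 66102 and 68032 in ablated and 93314 and 83911 in untreated cells. Slc14a1 did not pass with a pseudocount of 1. The number of stem cell genes past the threshold was 0 without untreated replicate 1 (4 at an unadjusted p under 0.05), 1 without ablated replicate 1, 1 without untreated replicate 2 and 2 without ablated replicate 2. Wnt target genes gave 0 of 20 past the threshold in limma, 2 at an unadjusted p under 0.05 and a median of -0.21.

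Other falls included a hormone subunit, growth factors and a folding enzyme. Inha, the alpha subunit of the hormone inhibin, measured 8.62 and 20.3 in ablated against 183 and 459 in untreated cells (-3.36 ± 0.49, adjusted p = 0.00179). Pdia2, a protein disulfide isomerase of secretory cells, measured 701 and 380 against 2405 and 4965 (-2.70 ± 0.40, adjusted p = 0.00211). Fgf1, a fibroblast growth factor, measured 168 and 155 in ablated against 1336 and 556 in untreated cells (-2.31 ± 0.33, adjusted p = 0.00129). The groups of these genes were far apart, and Fgf1 passed with any 1 array left out, while Inha (0.0656) and Pdia2 (0.0651) did not without untreated replicate 2. Egf, a growth factor for stem cells that Paneth cells supply, measured 282 and 344 in ablated and 859 and 591 in untreated cells (-1.15 ± 0.24, adjusted p = 0.0267). Btc, a ligand of the same receptor, went the other way, at 643 and 674 in ablated and 313 and 241 in untreated cells (1.21 ± 0.19, adjusted p = 0.00245). These were the 2 of 22 niche and growth factor ligands that passed, and the median of the list was -0.02. Egf was lost without the filter, without ablated replicate 1 (0.254) or without untreated replicate 1 (0.29), and Btc without untreated replicate 2 (0.0656).

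Among 23 Paneth cell genes 1 fell, 0 rose and 21 had a negative difference, with a median of -0.32. It was Copz2, a subunit of the COPI vesicle coat, at 356 and 410 in ablated against 1286 and 1655 in untreated cells (-1.89 ± 0.25, adjusted p = 0.00081), with or without any 1 array. Mptx1, a pentraxin of Paneth cells, differed by -1.22 ± 0.50 (adjusted p = 0.411). Unfolded protein response genes, which secretory cells use to keep protein folding in pace, gave 0 of 27 past the threshold in limma, but 25 were negative, 5 had an unadjusted p under 0.05 and the median was -0.31. Without untreated replicate 2 the median was -0.13 and 2 had such a p, and without untreated replicate 1 they were -0.53 and 10. Dnajc3, a chaperone of that response, differed by -0.79 ± 0.20 (adjusted p = 0.0797). Among called genes of the secretory path, Tram1, part of the channel through which new proteins enter the endoplasmic reticulum, measured 6098 and 6263 in ablated and 8636 and 10212 in untreated cells (-0.60 ± 0.13, adjusted p = 0.0376), and it was lost with any 1 array left out (adjusted p between 0.0591 and 0.377) and under both replicate blocks.

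Of 25 goblet cell genes 1 rose and 0 fell, with 12 positive and a median of -0.00. The gene that rose was Clca1, an abundant goblet cell protein of the mucus layer, at 11028 and 9481 in ablated and 3968 and 3764 in untreated cells (1.40 ± 0.18, adjusted p = 0.000497). Muc2, the main mucin, measured 23605 and 16427 against 16757 and 23057, with overlapping groups (0.0026 ± 0.26). Prss32, a serine protease, measured 7516 and 6747 in ablated and 2391 and 2965 in untreated cells (1.41 ± 0.16, adjusted p = 0.000235), and it passed with any 1 array left out, as did Clca1. Krt20, a keratin of differentiated epithelium and the 1 of 30 enterocyte genes that rose, measured 1711 and 1904 against 834 and 697 (1.23 ± 0.21, adjusted p = 0.0065), and it was lost without untreated replicate 2 (0.106). Of the enterocyte genes, 24 were positive and the median was 0.59, which became 0.07 without ablated replicate 2, 0.16 without untreated replicate 2 and 0.97 without ablated replicate 1. The summed enterocyte signal overlapped between groups, at 38694 and 60444 in ablated and 44767 and 35888 in untreated cells.

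Enteroendocrine genes had a median of 1.01, with 27 of 30 positive, 14 at an unadjusted p under 0.05 and 0 past the threshold in limma. One array stood apart in these genes. Their summed signal was 79840 in ablated replicate 1 and 27326 in ablated replicate 2, against 26672 and 26420 in untreated cells. Chga, a granule protein of hormone-secreting cells, shows the same, at 6381 and 705 against 783 and 745 (1.46 ± 0.65, adjusted p = 0.475). Without ablated replicate 1 the median was 0.07 and 0 genes passed, and without ablated replicate 2 it was 1.86 and 14 passed. Tuft cell genes gave 0 of 19 past the threshold in limma (3 at an unadjusted p under 0.05) and a median of 0.26 (-0.06 without ablated replicate 1, -0.01 without untreated replicate 2), and Dclk1, their kinase marker, measured 541 and 285 in ablated and 416 and 153 in untreated cells, with overlap.

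**Figure D3:**
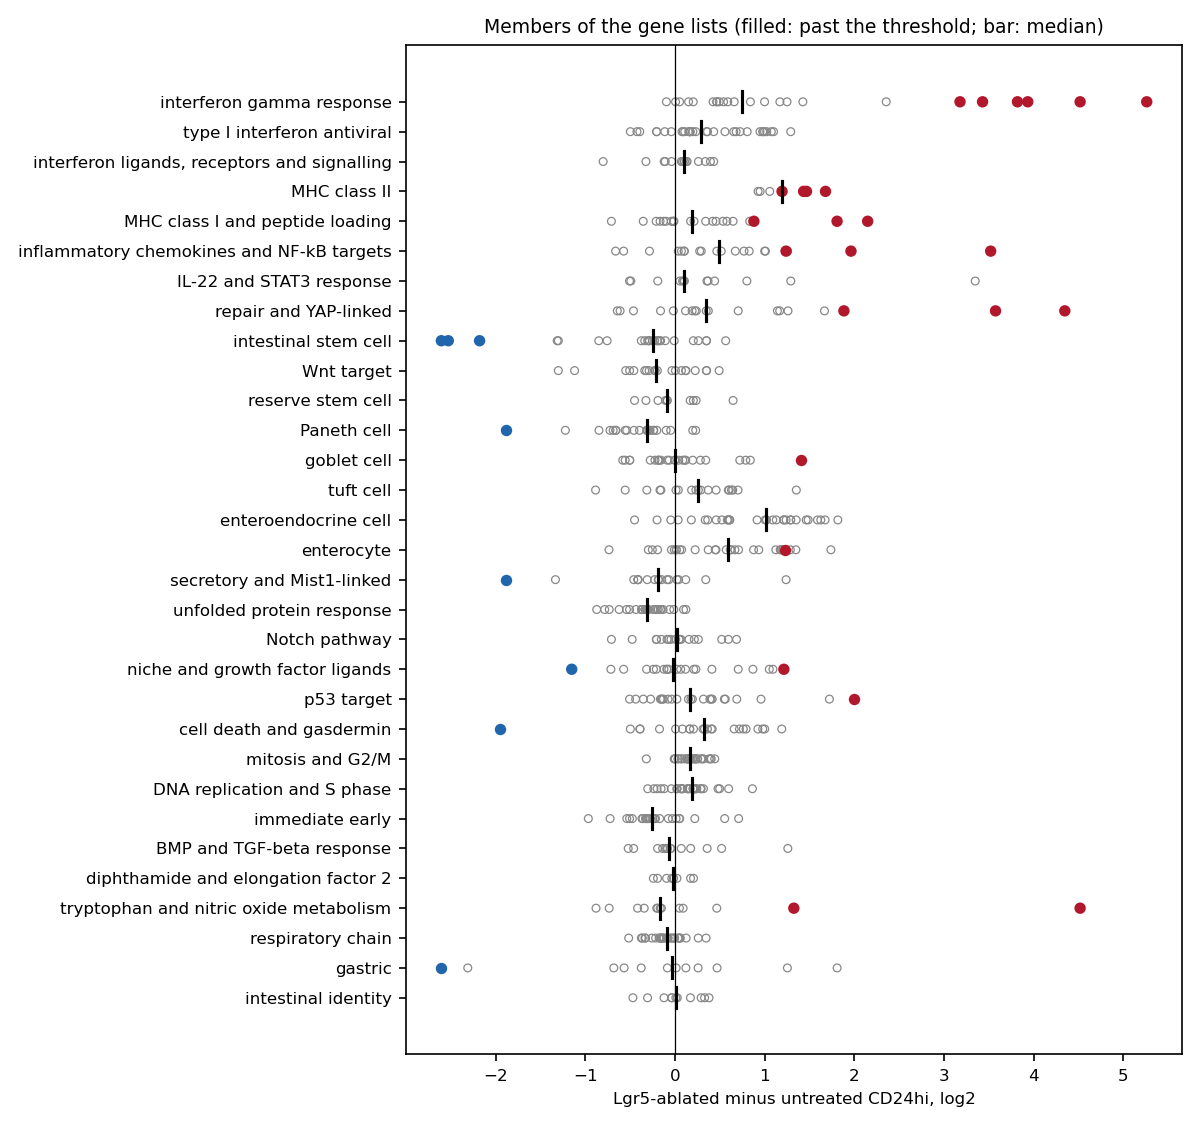
Differences, Lgr5-ablated minus untreated CD24hi, log2, of the tested members of each gene list, with 1 list per row, filled red or blue where a gene rose or fell and open where it did not pass, and a bar at the median. The MHC class II and interferon gamma response rows lie to the right of 0 with medians of 1.19 and 0.75, and the Paneth cell row lies mostly to the left with a median of -0.32.

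Proliferation genes gave small differences. These were positive for 26 of 29 mitosis and 26 of 32 DNA replication genes, against 5933 of all 11854 genes. The groups did not overlap, with ablated cells higher, for 9 mitosis and 15 replication genes, against 18.2% of all genes. Of 29 mitosis genes 0 passed in limma and 0 had an unadjusted p under 0.05, with a median of 0.17, and Mki67, which dividing cells express, measured 3430 and 3398 in ablated and 3028 and 3498 in untreated cells. Of 32 DNA replication genes 0 passed, 1 had an unadjusted p under 0.05 and the median was 0.18. Among 24 p53 target genes 1 rose, Phlda3, a membrane-bound inhibitor of the kinase Akt, at 330 and 295 in ablated against 119 and 34.4 in untreated cells (1.99 ± 0.44, adjusted p = 0.0396). Of the fits without 1 array it passed only in that without untreated replicate 1 (adjusted p between 0.0778 and 0.447 in the others), and it was lost with a pseudocount of 1, quantile normalization, no filter or no variance trend. Cdkn1a, the cell cycle inhibitor p21, measured 6184 and 4557 in ablated against 2943 and 2522 in untreated cells (0.96 ± 0.29, adjusted p = 0.177). Of 23 cell death genes 1 fell, Gsdmc2, of the pore-forming gasdermins, at 22.4 and 29.9 in ablated against 125 and 171 in untreated cells (-1.95 ± 0.38, adjusted p = 0.0184), and the list's median was 0.33 (0.02 without untreated replicate 2). That call held only without ablated replicate 2, with adjusted p of 0.134 without ablated replicate 1, 0.0665 without untreated replicate 1 and 0.213 without untreated replicate 2, and it was lost with a pseudocount of 1 or a stricter filter. Diphtheria toxin, an agent often used to ablate cells, acts on elongation factor 2 through its diphthamide residue. Of 8 genes tested, those of that residue, the factor and mouse Hbegf, 0 passed in limma and 0 had an unadjusted p under 0.05. Eef2, the factor, differed by -0.20 ± 0.21 and Hbegf by 0.02 ± 0.29.

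The CD24lo cells of the same conditions provide a comparison that shares no array. There 28 genes passed, 0.236% of those tested, 11 higher (0.0928%) and 17 lower (0.143%) in ablated cells. Of these, 13 had passed in CD24hi cells too, all in the same direction, 12.9% of the CD24hi genes and 46.4% of the CD24lo genes. Of the 68 and 33 CD24hi genes, 3 and 1 passed in CD24lo cells without untreated CD24lo replicate 1, 6 and 1 without ablated CD24lo replicate 2, and 6 and 2 without untreated CD24lo replicate 2. The shared genes included Cxcl9, at 389 and 322 in ablated and 26.4 and 5.79 in untreated CD24lo cells (3.61, adjusted p = 0.00147), H2-Eb1, at 4058 and 6383 against 1097 and 1515 (1.97, adjusted p = 0.00089), and BC064078, at 2060 and 1749 against 168 and 215 (3.21, adjusted p = 1.76e-05). Of the 68 genes that rose in CD24hi cells, 60 had a positive difference in CD24lo cells (88.2%, against 45.8% of all genes), with a median of 0.82. Of the 33 that fell, 32 had a negative one, against 6425 of all 11854 genes, with a median of -0.87 for the 33. Gsdmc2, dim in CD24hi cells, measured 160 and 132 in ablated against 1189 and 1297 in untreated CD24lo cells (-2.96, adjusted p = 0.00147). These 4 CD24lo calls held with any 1 CD24lo array left out, but the count of 28 depended on single arrays, with 46 genes when ablated CD24lo replicate 1 was left out, and with 12 and 17 when untreated CD24lo replicates 1 and 2 were.

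**Figure D4:**
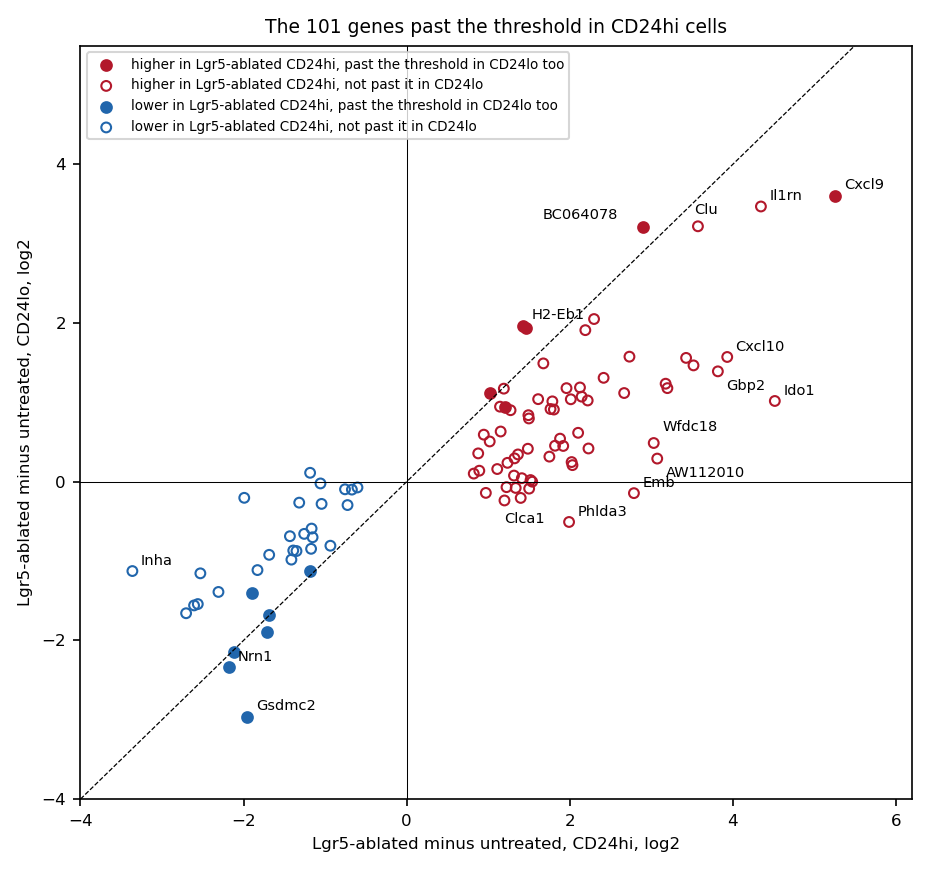
The 101 genes past the threshold in CD24hi cells, by their difference, Lgr5-ablated minus untreated, log2, in CD24hi (x axis) and CD24lo cells (y axis). Red genes rose and blue genes fell in CD24hi cells, the 13 filled points also passed in CD24lo cells, and the dashed line marks equal differences. Most red points lie below it, but the genes were chosen for their CD24hi differences, which favours that position.

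Tested directly, the difference between the fractions' responses passed for 2 genes, 0.0169% of those tested, and both responded more in CD24hi cells. AW112010 measured 9047 and 9215 in ablated and 7238 and 7674 in untreated CD24lo cells, a difference of 0.29, so its CD24hi change exceeded its CD24lo change by 2.78 (adjusted p = 1.89e-05). In CD24hi cells the ablated arrays had thus come near the level that CD24lo cells showed in either condition. Clca1 measured 15675 and 16153 in ablated and 16748 and 20050 in untreated CD24lo cells (-0.20), and its CD24hi change was greater by 1.60 (adjusted p = 0.0471). The Clca1 value passed without ablated CD24hi replicate 2 (adjusted p = 0.0252), where 26 genes passed, and was lost without any 1 of the other 7 arrays (adjusted p between 0.0956 and 0.363), while AW112010 passed in each of these fits. Ido1 followed the same pattern, at 10498 and 14273 in ablated and 9578 and 3798 in untreated CD24lo cells, but its difference between fractions of 3.50 did not pass (adjusted p = 0.0845).

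The same genes were also compared between the fractions on arrays outside the ablation comparison. In irradiated mice, 54 of the 68 genes that rose were higher in CD24lo than in CD24hi cells (79.4%, against 46.4% of all genes), with a median difference of 0.79. In doxorubicin-treated mice 52 were (76.5%, against 43.0%), with a median of 0.80. Of the 33 genes that fell, 30 were lower in CD24lo than in CD24hi cells of irradiated mice (90.9%, against 53.6% of all genes). In doxorubicin-treated mice 28 were, against 6761 of all 11854 genes. Cells that would sort as CD24lo and a shift of CD24hi cells towards those levels cannot be told apart in bulk RNA, and the part of the gate in the results was not tested.

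Irradiated CD24hi cells were set against ablated ones directly, and 1060 genes differed (8.94%), 660 higher (5.57%) and 400 lower (3.37%) in ablated cells. Of the 68 genes that rose over untreated cells, 37 were also above irradiated cells and 2 below, and of the 33 that fell, 27 were also below. These genes were chosen for their levels on the same ablated arrays, so the counts are a description. Leaving out irradiated replicate 1 reduced the 37 to 22 and the 1060 to 275, and leaving out ablated replicate 1 gave 26 and 523. Cxcl9 had 946 and 1207 in ablated and 3.18 and 1.76 in irradiated cells (5.88, adjusted p = 1.01e-06). H2-Eb1 had 5116 and 6271 in ablated against 315 and 288 in irradiated cells (4.16, adjusted p = 2.22e-08), and Cd74 7342 and 5950 against 331 and 298 (4.33, adjusted p = 2.39e-07). The irradiated class II signals lay below those of untreated cells, so the distance to ablated cells was wider than the distance from untreated ones. Phlda3 went the other way, at 330 and 295 in ablated and 1231 and 1576 in irradiated cells (-2.10, adjusted p = 0.00602). Gsn, at 1346 and 1399 in irradiated cells, differed by 0.20 from its level in ablated cells (adjusted p = 0.671). The Cxcl9, H2-Eb1, Cd74 and Phlda3 calls held with any 1 array left out.

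By list, 6 of 7 class II genes and 16 of 24 interferon gamma response genes were higher in ablated than in irradiated cells, and none of either list was lower. Higher too were 12 of 32 type I interferon antiviral genes and 27 of 32 DNA replication genes, with 0 lower in each list. Of 29 mitosis genes 27 were higher and 0 lower, with a median of 1.87, and Mki67 differed by 2.13 (adjusted p = 0.000445), beside its difference of 0.07 from untreated cells. Of 24 p53 target genes 14 were lower and 0 higher, with a median of -0.95. Leaving out irradiated replicate 1 lowered these counts to 5 class II, 11 interferon gamma, 19 mitosis and 7 p53 target genes, and leaving out ablated replicate 1 to 5, 9, 26 and 8. The 14 p53 target genes were 9 without irradiated replicate 2.

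Against doxorubicin-treated CD24hi cells 185 genes differed (1.56%), 99 higher (0.835%) and 86 lower (0.725%) in ablated cells. Ido1 had 10783 and 3570 in ablated and 283 and 325 in doxorubicin-treated cells (4.29, adjusted p = 6.72e-05), Gbp2 3396 and 1297 against 148 and 108 (3.89, adjusted p = 0.00015) and Icam1 1509 and 1184 against 128 and 162 (3.08, adjusted p = 0.00056). AW112010 stood at 8777 and 8308 against 1337 and 1362 (2.65, adjusted p = 1.96e-07). All 4 passed with any 1 array left out, and doxorubicin-treated cells were near the untreated level of each. Cxcl9 was an exception in that doxorubicin-treated cells, at 263 and 241, stood between ablated and untreated cells, and its difference of 2.02 (adjusted p = 0.0344) was lost with any 1 array left out (adjusted p between 0.137 and 0.293). Of the 68 genes, 26 were above doxorubicin-treated cells, again on the ablated arrays by which they were chosen, which became 12 without ablated replicate 1, 13 without doxorubicin replicate 1 and 14 without doxorubicin replicate 2, and the 185 genes became 50, 43 and 39 in these fits and 303 without ablated replicate 2. Over the 10 groups Cxcl9 was highest in ablated CD24hi cells, with a mean level of 10.08, followed by ablated CD24lo at 8.53, doxorubicin-treated CD24hi at 8.06 and doxorubicin-treated CD24lo at 6.32. The other 6 groups lay between 4.21 and 5.52, where signals were dim and neighbours in the order do not separate. The genes whose group means followed Cxcl9 most closely over the 10 groups were Ciart (r = 0.931), Hspa4 (0.921), Tlr1 (0.897), H2-Q5 (0.893) and Tnfaip3 (0.873), which is a description over means that share arrays with the comparison.

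**Figure D5:**
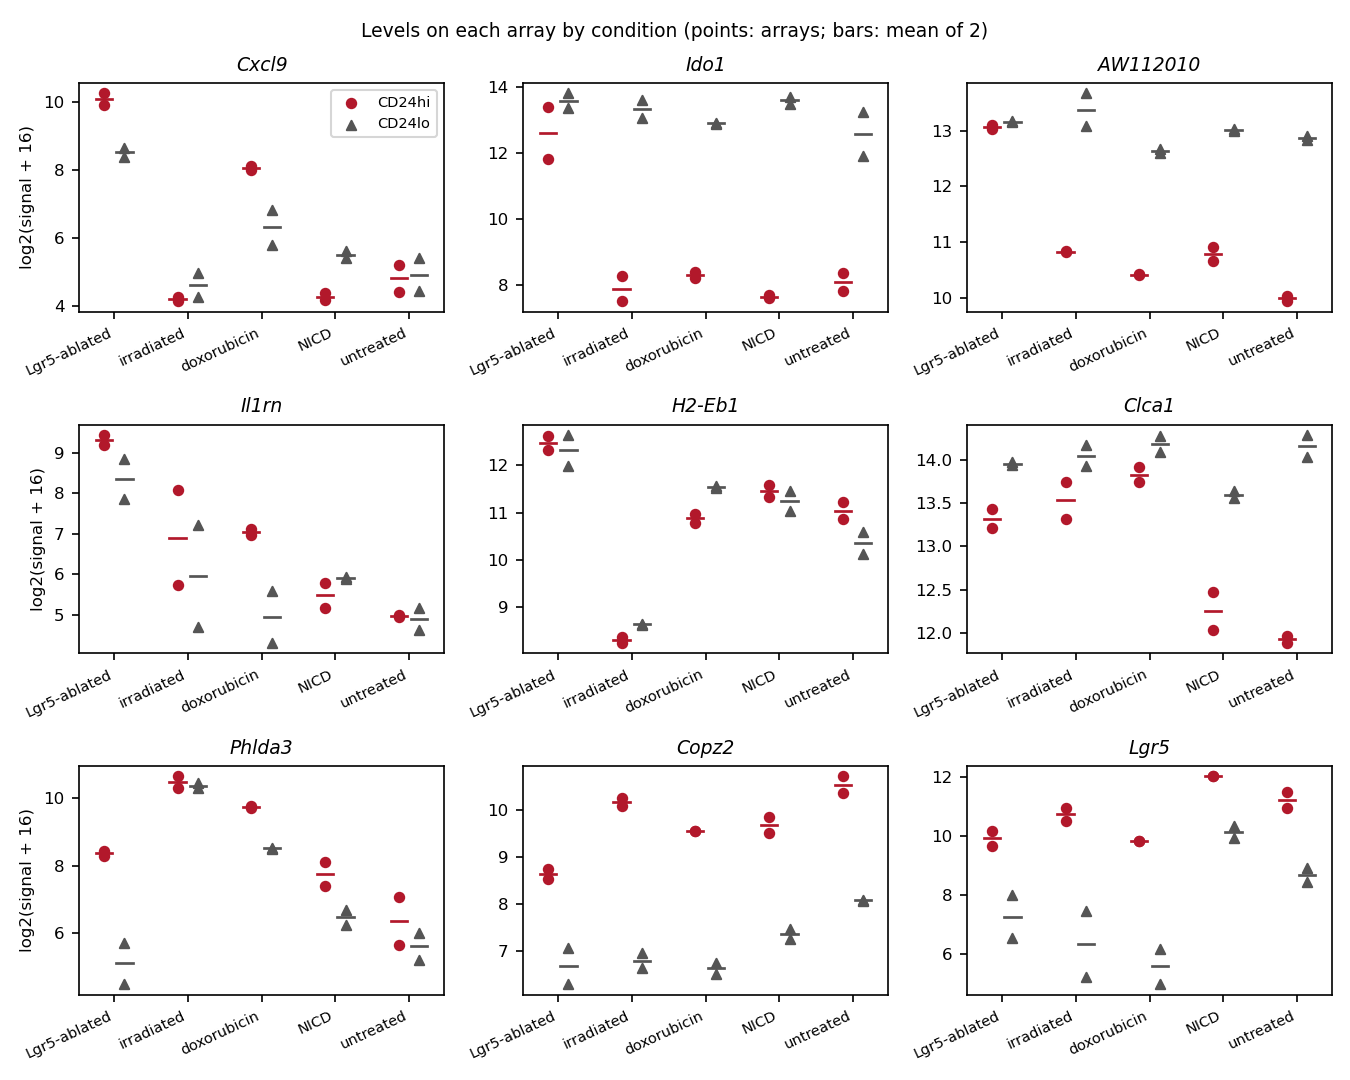
Levels, log2(signal + 16), of 9 genes on each array by condition, with red circles for CD24hi cells, grey triangles for CD24lo cells and bars at the mean of 2 arrays. Cxcl9 is highest in ablated CD24hi cells with a mean of 10.08, AW112010 in ablated CD24hi cells is near its CD24lo level, and Phlda3 is highest in irradiated CD24hi cells, at signals of 1231 and 1576.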

How the data were processed

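RNA of sorted cells was amplified from 0.8 ng with a GeneChip Pico kit, per the labels. Affymetrix arrays, 21 in all, were summarised by the authors as MAS5 signal intensity, which the submitters' processing notes name, for 45101 probe sets. Detection calls were not used here, and the authors' scaling was kept. A total of 34958 had 1 gene symbol in the platform annotation, 932 several and 9211 none, and those with 1 were used. Probe sets above their array's median on at least 2 of the 20 sorted arrays were kept (22531), with the brightest for each gene (11854 genes). A pseudocount of 16 was added before taking log2. The model (limma 3.58.1, R 4.3.3) held 10 group means and had 10 residual degrees of freedom, with variances moderated with a trend on the level, two-sided tests and the Benjamini-Hochberg adjustment over all genes at 0.05. The procedure was tested on simulated data. The number of arrays limits the precision.

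The members and lists were chosen with earlier results of these data known. Genes named are those with a fixed role as labels or markers, list members past the threshold and up to 6 others of each list by size, the 25 largest rises and 25 largest falls without overlap between arrays (10 and 10 in each other comparison), and the same genes in the other comparisons. Prss32, Pfkfb3, B2m, Tap1, Ifngr1, Ifngr2, Ascl2, Smoc2 and Tram1 fall outside that rule or were picked by eye, and were named after their values were seen. The labels do not say that replicate numbers pair the samples. The residuals of arrays sharing a number correlated at -0.1354 in CD24hi and -0.4001 in CD24lo cells, at 0.1931 for ablated and irradiated and 0.0361 for ablated and doxorubicin CD24hi cells. Alternatives were other pseudocounts, normalizations, filters, probe set summaries and variance models, smaller fits, a replicate block and leaving out each array. The crossed block and the levels in irradiated and doxorubicin arrays were added after seeing the data. Promoters came from a RefSeq table on GRCm38.p6.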

Additional observations from a re-analysis of the deposited data

Results flagged for a closer look

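The response to ablation differed between the sorted fractions in a direct test for 2 genes. AW112010 rose by 2.78 more in CD24hi than in CD24lo cells on the log2 scale, and this passed the threshold under each of the 20 alternatives tried. For Clca1 the rise in CD24hi cells exceeded the CD24lo difference by 1.60, and 13 of the 20 alternatives ended the call. In both genes the untreated CD24hi arrays lay well below all 4 CD24lo arrays.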

How the results depend on the processing

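Among the 101 CD24hi calls, 0 changed direction under any alternative. Values near 0 did, such as the Muc2 difference (-0.26 without ablated replicate 1, 0.26 without ablated replicate 2), the goblet cell median (-0.23 to 0.11 with 1 array left out) and the niche ligand median (-0.22 to 0.17). With a fit to the compared groups alone, the counts were 33 for CD24hi (main 101), 0 for CD24lo (main 28, limma, 485 at an unadjusted p under 0.05), 1 for the difference between fractions (main 2) and 542 against irradiated cells (main 1060). That difference also gave 1 with a pseudocount of 1, with 75th percentile centring, without the filter, without the variance trend and with the replicate block, and 4 with quantile normalization. Leaving out 1 array gave 36 to 186 for CD24hi, 12 to 46 for CD24lo, 1 to 26 for the difference, 275 to 1226 against irradiated and 39 to 303 against doxorubicin-treated cells. Under the replicate block the counts were 96 for CD24hi, 26 for CD24lo, 1011 and 184, and 91 of the 101 CD24hi calls remained. The crossed block, added after seeing the data, gave 94 for CD24hi and 28 for CD24lo. The cause of these shifts was not tested. Of the 101 genes, 17 passed under every alternative in which they were tested, among them Cxcl10, Ido1, Gbp2, Icam1, AW112010 and Copz2. The stricter filter left 89 of the 101 genes, and Icam1 and Gbp8, both among the 17, were not tested under it. With 2 arrays per group and no detection calls, dim genes such as Ifng, Nos2 and Cd274 could not be assessed.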

Other observations

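Pnliprp1, a pancreatic lipase-related protein, fell in both fractions. It measured 437 and 307 in ablated against 1213 and 1210 in untreated CD24hi cells (-1.68 ± 0.29, adjusted p = 0.0065), and 27.6 and 36.1 against 134 and 138 in CD24lo cells (-1.67, adjusted p = 0.0185). The CD24hi call passed without ablated replicate 1 and was lost without ablated replicate 2 (0.0511), untreated replicate 1 (0.0599) or untreated replicate 2 (0.0729), and the CD24lo call was lost without any 1 array. Pnliprp2, a related lipase, passed in CD24lo cells (-2.71, adjusted p = 0.00147) and differed by -0.69 in CD24hi cells, short of the threshold. The summed pancreatic acinar signal was 3744 and 4524 in ablated and 7717 and 7838 in untreated CD24hi cells, but 7 of the 11 members tested had a positive difference, the median was 0.04 and only Pnliprp1 passed.

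Pck1 and Pfkfb3 passed the threshold in CD24hi cells in opposite directions. Pck1, an enzyme of glucose synthesis, measured 176 and 394 in ablated against 1274 and 947 in untreated cells (-1.99 ± 0.38, adjusted p = 0.0137). Pfkfb3, which promotes glycolysis, measured 542 and 377 against 106 and 92.7 (2.02 ± 0.33, adjusted p = 0.00381). Neither gene's groups overlapped, and both calls were lost without ablated replicate 1 (0.23 and 0.075) or untreated replicate 2 (0.0657 and 0.0656), that of Pck1 also without untreated replicate 1 (0.153). Of 29 respiratory chain genes 0 passed in limma, 2 had an unadjusted p under 0.05 and the median was -0.10.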
